A study of Mus musculus with 8 samples.

Results

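DEAD box and DEAH box helicases are RNA-dependent ATPases named for the residues of a motif in their ATP-binding core. DEAD box proteins open short RNA duplexes and remodel RNA-protein complexes locally, while DEAH box proteins move along RNA to pull such complexes apart. Many act in the nucleolus, where ribosomal RNA is folded and processed, others drive the steps of the spliceosome, and a few, such as the Vasa homologue DDX4, are known from germ cells. The genes were chosen by symbol, as those beginning with Ddx or Dhx and a digit, leaving out Ddx6 and Ddx58. This gave 49 of the 13101 genes of the gene table, 35 named Ddx and 14 named Dhx.

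RNA was measured in 8 pools of mouse embryos at the 2-cell stage, of the C57BL/6 background, 4 wild type (WT) and 4 with a knockout of Dux (Dux KO). Dux encodes a transcription factor active when the embryonic genome is first switched on, and the comparison asks which transcripts depend on it. Each pool held 12 to 18 embryos collected after timed matings, whose polyA RNA was amplified and sequenced. Neither the design of the knockout allele nor the parentage of the pools is stated in the labels. Pools of 1 genotype may therefore share parents, and p-values speak only for the spread seen among them. Gene reads recovered per pool numbered 12343369 to 14548526, and values are FPKM. They appear to be reads scaled for transcript length and divided by a size factor per pool, not by total reads. This is inferred from the values. WT pool 3 had 13248986 reads and a factor of 0.891, and Dux KO pool 1 had 13010944 reads and a factor of 1.07. Scaling by total reads was not tested. The Dux transcript was not analysed here, and the knockout was not checked by it. All 13 markers of oocytes and 2-cell embryos were in the table, with summed levels of 6361 to 7554 FPKM in WT and 5218 to 8611 FPKM in Dux KO. None of 6 blood and none of 6 sperm markers was in it. Of 10 cumulus and granulosa cell markers 3 were present, summing to 1.25 to 9.07 FPKM in WT and 4.45 to 18.8 FPKM in Dux KO. One of them, Cyp19a1, rose from 0.420 ± 0.147 to 1.06 ± 0.311 FPKM (SD, n = 4; limma adjusted p = 0.0167). Inha and Tnfaip6 were not called (limma adjusted p = 0.229 and 0.866). Inha was at 1.21, 9.18, 0.869 and 16.0 FPKM in Dux KO pools 1 to 4 and at 2.98 FPKM or less in WT pools. Tnfaip6 was highest in WT pool 2, at 5.81 FPKM. Of 6 oviduct markers 3 were present, summing to 129.8 to 149.8 FPKM in WT and 96.8 to 138 FPKM in Dux KO. Most of this was Epcam, which fell (limma adjusted p = 0.0297). The other 2 had higher means in Dux KO, Ovgp1 with 4.96 ± 4.53 and 10.5 ± 8.52 FPKM and Krt18 with 2.84 ± 1.30 and 6.83 ± 5.58 FPKM in WT and Dux KO (SD, n = 4; limma adjusted p = 0.213 and 0.218). Krt18 was at 13.3 and 9.60 FPKM in Dux KO pools 1 and 2 and at 4.71 FPKM or less in each of the others. The part of these transcripts in the results was not tested.

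Genes were sorted by known role into 16 nucleolar, 10 splicing and 3 germline helicases, 7 of mRNA export, translation and decay, 5 of transcription and genome maintenance, 2 mitochondrial, 2 antiviral and 4 others. Dhx34, Dhx35 and Ddx26b were not analysed here. A gene was called lower or higher where limma gave a Benjamini-Hochberg adjusted p under 0.05 over all genes tested. Of the 49 helicase genes 48 had the required mean of 0.5 FPKM, and Ddx3y did not. Their median level was 8.20 FPKM, where that of all genes tested was 5.42 FPKM. Levels ran from 0.597 FPKM for Ddx11 to 90.0 FPKM for Ddx52.

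Promoter sequences from RefSeq (GRCm38.p6), 250 bases before to 50 after the transcript start, were matched for 44 of the 49 genes and searched on both strands for 14 motifs. These were the E-box CACGTG, the ETS core CCGGAAG, the NRF1 palindrome and its overlapping core GCATGCGC, the YY1 core AAGATGGC, the CCAAT box, the TATA box TATAAA, a pair of DUX-type homeodomain motifs, the CGCG palindrome, the GC box GGGCGG, the cyclic AMP response element TGACGTCA, the pyrimidine stretch CTTTTNC and the ZNF143 element. The letters CCGGAAG, the core bound by ETS family factors, stood in 17 of the 44 helicase promoters (38.6%). The share was 20.8% of the 9116 genes tested that had a promoter sequence, the genes tested in every motif share given here. It was 9.93% of all genes with a promoter sequence. The letters were found in 8 of 16 nucleolar, 3 of 8 splicing and none of 3 germline helicases. They were found in 9 of 17 helicase genes called lower in Dux KO and in 8 of the 27 others. GGGCGG stood in 9 of these 17 and 21 of these 27, CCAAT in 6 and 15, CACGTG in 1 and 5, and CTTTTNC in 4 and 5. No split by call was tested, nor was CCGGAAG counted in called genes outside the helicases. The stretches printed here show where the letters CCGGAAG lay in members with different results. They hold the 250 bases before the start, 5′ to 3′ on the gene's strand. Dhx9 (chr1:153487661-153487910, minus strand), Ddx55 (chr5:124552614-124552863, plus) and Ddx39b (chr17:35241496-35241745, plus) were called lower, while Ddx10 (chr9:53248113-53248362, minus) and Ddx17 (chr15:79546742-79546991, minus) were not called. Ddx19a (chr8:110997824-110998073, minus) was the helicase called higher. Capitals mark CCGGAAG or its reverse complement in the first 5 genes, and in Ddx19a the cyclic AMP response element TGACGTCA.
Dhx9: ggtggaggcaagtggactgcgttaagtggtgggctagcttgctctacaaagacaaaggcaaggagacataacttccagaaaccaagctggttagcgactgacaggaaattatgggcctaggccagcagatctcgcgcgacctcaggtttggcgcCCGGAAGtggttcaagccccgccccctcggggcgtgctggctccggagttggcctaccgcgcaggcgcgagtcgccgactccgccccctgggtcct
Ddx55: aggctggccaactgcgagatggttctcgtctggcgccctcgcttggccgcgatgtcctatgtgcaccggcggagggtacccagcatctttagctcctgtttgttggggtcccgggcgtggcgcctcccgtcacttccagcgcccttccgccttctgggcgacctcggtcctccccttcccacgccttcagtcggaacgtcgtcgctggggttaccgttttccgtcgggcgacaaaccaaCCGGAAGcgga
Ddx39b: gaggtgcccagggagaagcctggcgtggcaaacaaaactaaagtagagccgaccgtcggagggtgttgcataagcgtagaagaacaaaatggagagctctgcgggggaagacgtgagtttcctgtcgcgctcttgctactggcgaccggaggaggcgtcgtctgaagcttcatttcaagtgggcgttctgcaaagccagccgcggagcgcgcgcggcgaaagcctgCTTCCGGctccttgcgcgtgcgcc
Ddx10: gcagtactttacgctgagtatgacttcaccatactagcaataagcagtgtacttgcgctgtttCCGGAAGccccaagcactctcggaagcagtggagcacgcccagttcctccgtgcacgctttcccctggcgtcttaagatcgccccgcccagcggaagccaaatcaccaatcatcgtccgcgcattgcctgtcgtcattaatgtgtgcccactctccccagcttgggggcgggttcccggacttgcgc
Ddx17: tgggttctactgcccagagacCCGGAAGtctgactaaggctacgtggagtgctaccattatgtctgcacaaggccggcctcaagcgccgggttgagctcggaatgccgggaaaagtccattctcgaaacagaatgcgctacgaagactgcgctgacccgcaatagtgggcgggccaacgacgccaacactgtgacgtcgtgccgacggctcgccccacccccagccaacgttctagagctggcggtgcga
Ddx19a: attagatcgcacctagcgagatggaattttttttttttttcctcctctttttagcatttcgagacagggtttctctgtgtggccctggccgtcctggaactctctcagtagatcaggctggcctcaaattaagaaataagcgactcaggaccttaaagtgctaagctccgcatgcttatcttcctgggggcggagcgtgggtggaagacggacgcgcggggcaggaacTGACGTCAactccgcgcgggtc

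The marked letters began 96, 11, 24, 187 and 229 bases before the start in Dhx9, Ddx55, Ddx39b, Ddx10 and Ddx17, and 22 bases before it in Ddx19a. TGACGTCA was present in 5 of 44 helicase promoters (11.4%, against 3.63% of genes tested), those of Ddx19a, Dhx36, Ddx51, Ddx49 and Ddx28. CACGTG, the E-box read by MYC and its relatives, was found in 6 of 44 helicase promoters (13.6%, against 11.8% of genes tested), among them Ddx4 and Ddx25 of the 3 germline genes. CCAAT was found in 21 of 44 (47.7%, against 44.3%). The DUX-type motif that begins with TGAT was found in none of the 44 and in 0.165% of genes tested. A match or its absence describes these windows only.

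In Dux KO pools, 18 of the 48 tested helicase genes were lower (37.5%) and 1 was higher (2.08%), and 29 were not called. Over all 12434 genes tested, 18.1% were called lower and 15.5% higher. The median log2 fold change of the helicase genes was -0.45, where that of all genes was -0.02. Values below 0 were estimated for 42 of the 48. All 4 Dux KO pools lay below all 4 WT pools for 16 helicase genes (33.3%, where all genes gave 18.1%), and the reverse held for Ddx19a alone (all genes, 15.0%). Genes named Ddx were called lower in 14 of 34 cases and genes named Dhx in 4 of 14, with medians of -0.51 and -0.24. In a fit restricted to a mean level of 5 FPKM or more, 16 of 34 helicases and 29.1% of all genes were lower, with medians of -0.51 and -0.18. These are pools of whole embryos, so that fewer cells holding a transcript and less RNA per cell cannot be told apart.

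**Figure D1:**
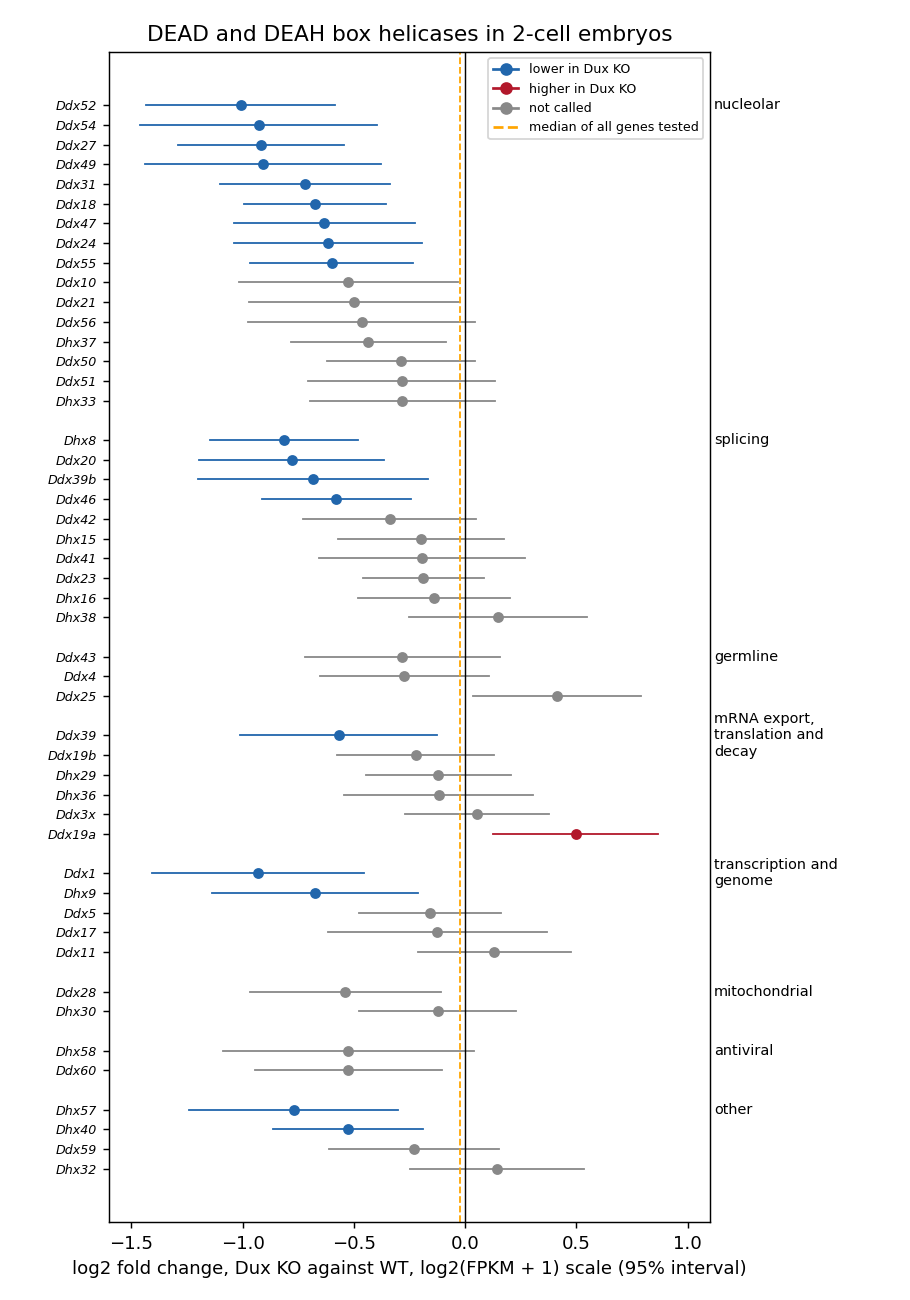
Log2 fold change of each tested helicase gene between Dux KO and WT pools on the log2(FPKM + 1) scale, with its 95% interval, grouped by role; blue and red mark genes called lower and higher, and the dashed line is the median of all genes tested. All 16 nucleolar helicases lie below 0, while the germline helicases lie on both sides of it.

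The nucleolar helicases, which act on ribosomal RNA precursors, had the lowest median of the 3 roles compared, with a log2 fold change of -0.61. Of the 16 genes 9 were lower by limma, none was higher, with or without adjustment of p, and 7 were not called, where 18.1% of all genes were lower. In the fit restricted to a mean level of 5 FPKM or more, 7 of 10 were lower, where all genes gave 29.1%. The count of 9 was 5 without WT replicate 4, where the share of all genes lower was 10.8%. Every estimate was below 0, from -1.01 for Ddx52 to -0.28 for Dhx33. Among the 9 called genes the largest changes on the log2(FPKM + 1) scale were those of Ddx52, Ddx54, Ddx27 and Ddx49, whose Dux KO means were lower by 49.4% or more. The mean of Dhx37, a gene of low level that was not called, was lower by 50.1%.

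Ddx52 (chromosome 11, 83942062 to 83963088, GRCm38) belongs to the assembly of the small ribosomal subunit and was the most abundant helicase gene of the set. It was at 110.1, 103, 139.7 and 127 FPKM in WT pools 1 to 4 and at 52.0, 43.5, 78.1 and 66.9 FPKM in Dux KO pools 1 to 4. The lowest WT pool was well above the highest Dux KO pool. Its log2 fold change was -1.01 (95% interval -1.43 to -0.59, limma adjusted p = 0.00502), and the call held in all 19 alternative analyses.

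Ddx27 (chromosome 2, 167015193 to 167034947, GRCm38), whose product works with the PeBoW complex on the large subunit, stood at 16.5, 17.8, 20.7 and 23.6 FPKM in WT pools and 8.27, 9.07, 12.3 and 10.2 FPKM in Dux KO pools. Here too the groups did not overlap, and the log2 fold change was -0.92 (95% interval -1.29 to -0.54, limma adjusted p = 0.00458). Ddx18 is the counterpart of yeast Has1 and serves both subunits. Its 4 WT pools held 22.1, 22.0, 22.1 and 26.2 FPKM and its Dux KO pools 12.5, 12.8, 16.0 and 15.2 FPKM, again without overlap and with WT pool 4 the highest (a log2 change of -0.68, limma adjusted p = 0.00767).

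Ddx49, of small subunit assembly, was at 10.6, 11.7, 20.8 and 19.9 FPKM in WT and 7.55, 5.86, 10.6 and 7.03 FPKM in Dux KO pools. WT pool 1 and Dux KO pool 3 were nearly equal, and the groups met without overlapping. The log2 fold change was -0.91 (95% interval -1.44 to -0.38, limma adjusted p = 0.0169), and the call was lost without WT replicate 4. Of the annotated exonic bases of Ddx49, 29.9% also lie in exons of Homer3 on the opposite strand, and whether the counting used strand is not given, so its reads may be shared.

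Ddx54 is a low-expressed nucleolar gene also known as a corepressor of nuclear receptors. It was at 1.35, 1.87, 4.59 and 3.12 FPKM in WT and 0.910, 0.851, 1.13 and 0.574 FPKM in Dux KO, from 49 to 339 recovered reads per pool. WT pools differed more than 3-fold among themselves, and none fell below a Dux KO pool. Its log2 fold change was -0.93 on the log2(FPKM + 1) scale (95% interval -1.46 to -0.40, limma adjusted p = 0.0161). The Dux KO mean was lower by 68.3%, and the authors' deposited log2 fold change was -1.66. Exons of other genes on the opposite strand cover 15.5% of its exonic bases.

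Ddx31, of the large subunit pathway, was at 11.1, 10.4, 14.3 and 10.7 FPKM in WT pools and 5.56, 6.01, 6.55 and 8.71 FPKM in Dux KO pools, without overlap (a log2 change of -0.72, limma adjusted p = 0.0119). The other 3 called nucleolar genes changed less and depended more on single pools. Ddx47, a small subunit factor, was at 21.2 to 35.2 FPKM in WT pools and 15.5 to 20.3 FPKM in knockout pools (a log2 change of -0.63, limma adjusted p = 0.0249). Ddx24, of the large subunit, was at 12.5 to 21.1 and 9.23 to 12.4 FPKM (a log2 change of -0.62, limma adjusted p = 0.0311). Ddx55, also of the large subunit, was at 4.31 to 5.02 and 1.99 to 3.40 FPKM (a log2 change of -0.60, limma adjusted p = 0.0199). None of these 3 overlapped between the groups. Ddx47 and Ddx24 lost their calls when WT replicate 3 or 4 or Dux KO replicate 1 or 2 was left out, Ddx24 also with quantile normalization. Ddx55 lost its call when WT replicate 4 or Dux KO replicate 1 was left out.

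The 7 nucleolar helicases not called had estimates from -0.52 for Ddx10 to -0.28 for Dhx33. Ddx21, which couples ribosomal RNA synthesis to its processing, was at 14.2, 17.6, 26.1 and 27.8 FPKM in WT pools and 13.0, 12.1, 16.0 and 16.8 FPKM in Dux KO pools (limma adjusted p = 0.0944). WT pool 1 fell within the Dux KO range, WT pool 2 just above it, and WT pools 3 and 4 well above it. Ddx10, linked to U14 snoRNA release, also had WT pools 3 and 4 on top and WT pools 1 and 2 within the Dux KO range, at 21.6, 21.5, 38.0 and 31.9 FPKM in WT and 17.2, 14.3, 19.5 and 25.7 FPKM in Dux KO (limma adjusted p = 0.0901). Ddx56, of the large subunit, was at 23.2, 23.0, 46.3 and 37.7 FPKM in WT pools, the first 2 within the Dux KO range, and at 25.8, 17.2, 22.5 and 24.6 FPKM in Dux KO pools (limma adjusted p = 0.138). Dhx37, which frees the U3 snoRNA, just missed the threshold (a log2 change of -0.43, limma adjusted p = 0.0545) with 22 to 97 reads per pool. Ddx50, the paralogue of Ddx21, had no overlap between the groups but a small difference (4.98 ± 0.720 FPKM in WT, 3.88 ± 0.214 in Dux KO, SD, n = 4; limma adjusted p = 0.155). The ratio of Ddx21 to Ddx50 was 4.28 ± 1.05 in WT and 3.72 ± 0.397 in Dux KO (SD, n = 4). Ddx51 and Dhx33, at 2 to 5 FPKM, were not called either (limma adjusted p = 0.259 and 0.257).

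The spread within WT was itself ordered in these genes, a pattern chosen after its values were seen. WT pools 3 and 4 both lay above WT pools 1 and 2 in 28 of 48 helicase genes (58.3%) and both below in 3 (6.25%). Over all genes tested these shares were 26.3% and 23.2%. Of nucleolar helicases 12 of 16 showed the first order, of splicing helicases 5 of 10 and of germline helicases none of 3. The cause was not tested.

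**Figure D2:**
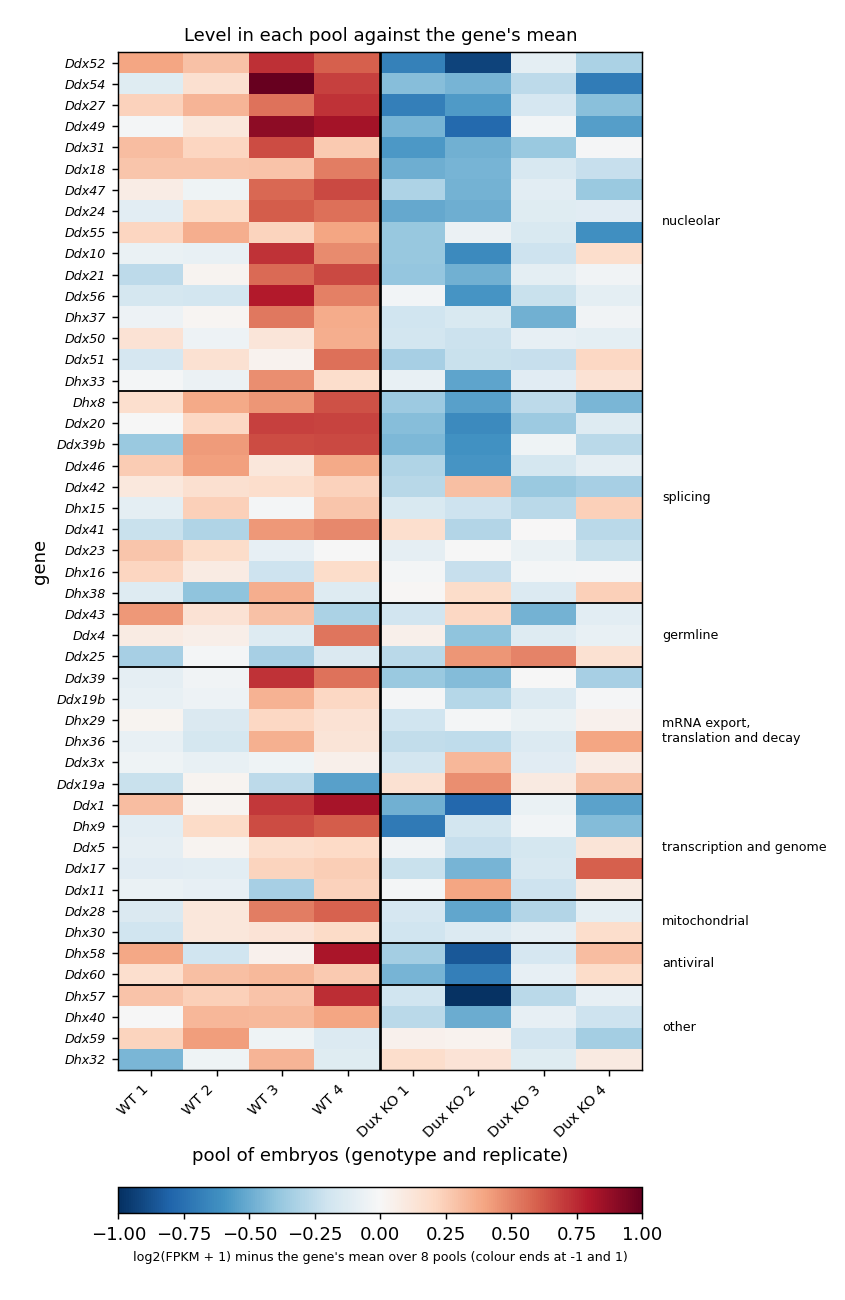
Level of each tested helicase gene (from top to bottom by role and fold change) in each of the 8 pools (columns), as log2(FPKM + 1) minus the gene's mean over pools. WT pools 3 and 4 both exceed WT pools 1 and 2 in 12 of the 16 nucleolar genes.

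Nucleolar proteins without a helicase domain, formed a list of 45 genes, all tested. Of these 31 were lower (68.9%), none was higher by limma (none at an unadjusted p under 0.05 either) and 14 were not called, with a median log2 fold change of -0.67. Of all genes 18.1% were lower, and the median level of this list was 32.1 FPKM. In the fit restricted to 5 FPKM or more, 29.1% of all genes were lower and 30 of 40 genes of this list were called in either direction. The count of 31 was 19 without WT replicate 4, where the share of all genes lower was 10.8%. Imp3, a protein of the U3 snoRNP, was at 279.6, 279, 268 and 292 FPKM in WT pools and 123, 108, 164 and 124 FPKM in Dux KO pools. Its groups were far apart (a log2 change of -1.12, limma adjusted p = 0.00207). Gnl3, the GTPase nucleostemin, fell from 94.3 ± 17.8 to 46.7 ± 16.4 FPKM (SD, n = 4; log2 fold change -1.06, limma adjusted p = 0.0123).

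Of 10 splicing helicases 4 were lower by limma, none was higher, with or without adjustment of p, and 6 were not called. Estimates were below 0 for 9 of the 10, with a median log2 fold change of -0.27. Of all genes 18.1% were lower and 15.5% higher. In the fit restricted to a mean level of 5 FPKM or more the median was -0.46, where that of all genes was -0.18. The genes that fell were Dhx8, Ddx20, Ddx39b and Ddx46, and the estimates of the others ran from -0.34 to 0.15.

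Dhx8 (chromosome 11, 101732919 to 101767358, GRCm38), the counterpart of yeast Prp22 that releases the spliced mRNA, was at 18.1, 21.1, 22.1 and 25.5 FPKM in WT and 12.2, 10.7, 13.2 and 11.4 FPKM in Dux KO pools. Every Dux KO pool lay below every WT pool. The log2 fold change was -0.82 (95% interval -1.15 to -0.48, limma adjusted p = 0.00458), and the call held in all 19 alternative analyses.

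Ddx20, known as Gemin3 of the SMN complex that assembles spliceosomal snRNPs, was at 30.2, 35.1, 49.3 and 49.0 FPKM in WT and 22.3, 19.1, 23.3 and 27.6 FPKM in Dux KO pools. WT pools 3 and 4 again stood above 1 and 2, and all were above the Dux KO pools (a log2 change of -0.78, 95% interval -1.20 to -0.36, limma adjusted p = 0.0122). Ddx46, the Prp5 counterpart that acts as U2 snRNP joins the branch site, was at 54.6, 61.2, 49.6 and 59.9 FPKM in WT and 37.0, 30.0, 40.4 and 43.0 FPKM in Dux KO pools. The groups were separate and the change was moderate (a log2 change of -0.58, limma adjusted p = 0.0165), and the call was lost with quantile normalization. Ddx39b, also called UAP56, which serves both splicing and mRNA export, was at 4.69, 8.87, 10.5 and 10.6 FPKM in WT and 4.39, 3.83, 6.12 and 5.08 FPKM in Dux KO pools. WT pool 1 lay within the Dux KO range, and the call (a log2 change of -0.68, limma adjusted p = 0.0445) was lost in 9 of 19 alternative analyses. These included leaving out any 1 of WT replicates 2, 3 and 4 or Dux KO replicates 1, 2 and 4.

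The DEAH helicases of the catalytic steps other than Dhx8 were not called. Dhx16, the Prp2 counterpart, averaged 7.60 ± 1.09 FPKM in WT pools and 6.77 ± 0.551 FPKM in knockout pools (SD, n = 4), with a 95% interval of the log2 change of -0.48 to 0.20. Dhx38, the Prp16 counterpart, was at 1.80 ± 0.651 and 2.06 ± 0.358 FPKM, with an interval of -0.25 to 0.55. Dhx15, the Prp43 counterpart that takes spliceosomes apart, was at 8.02 ± 1.15 and 6.89 ± 1.34 FPKM, with an interval of -0.57 to 0.18. Ddx41, Ddx42 and Ddx23, the last a tri-snRNP protein seen at 43 to 85 reads per pool, were likewise not called (limma adjusted p = 0.482, 0.154 and 0.249).

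Among spliceosome proteins without a helicase domain, 22 of 47 tested were lower by limma, none was higher, with or without adjustment of p, and 25 were not called, with a median of -0.51. The list's median level was 15.3 FPKM, and all genes gave 18.1% lower. In the fit restricted to 5 FPKM or more, 29.1% of all genes were lower and 25 of 37 genes of this list were called in either direction. Slu7, a factor of the second catalytic step, fell from 84.3 ± 11.6 to 41.9 ± 10.6 FPKM (SD, n = 4; log2 fold change -1.01, limma adjusted p = 0.0042). Prpf31, of the tri-snRNP, fell from 11.4 ± 3.08 to 5.64 ± 2.05 FPKM (a log2 change of -0.93, limma adjusted p = 0.0218). The count of 22 was 13 when WT replicate 4 was left out and 13 when Dux KO replicate 1 was. The shares of all genes lower were then 10.8% and 11.4%.

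**Figure D3:**
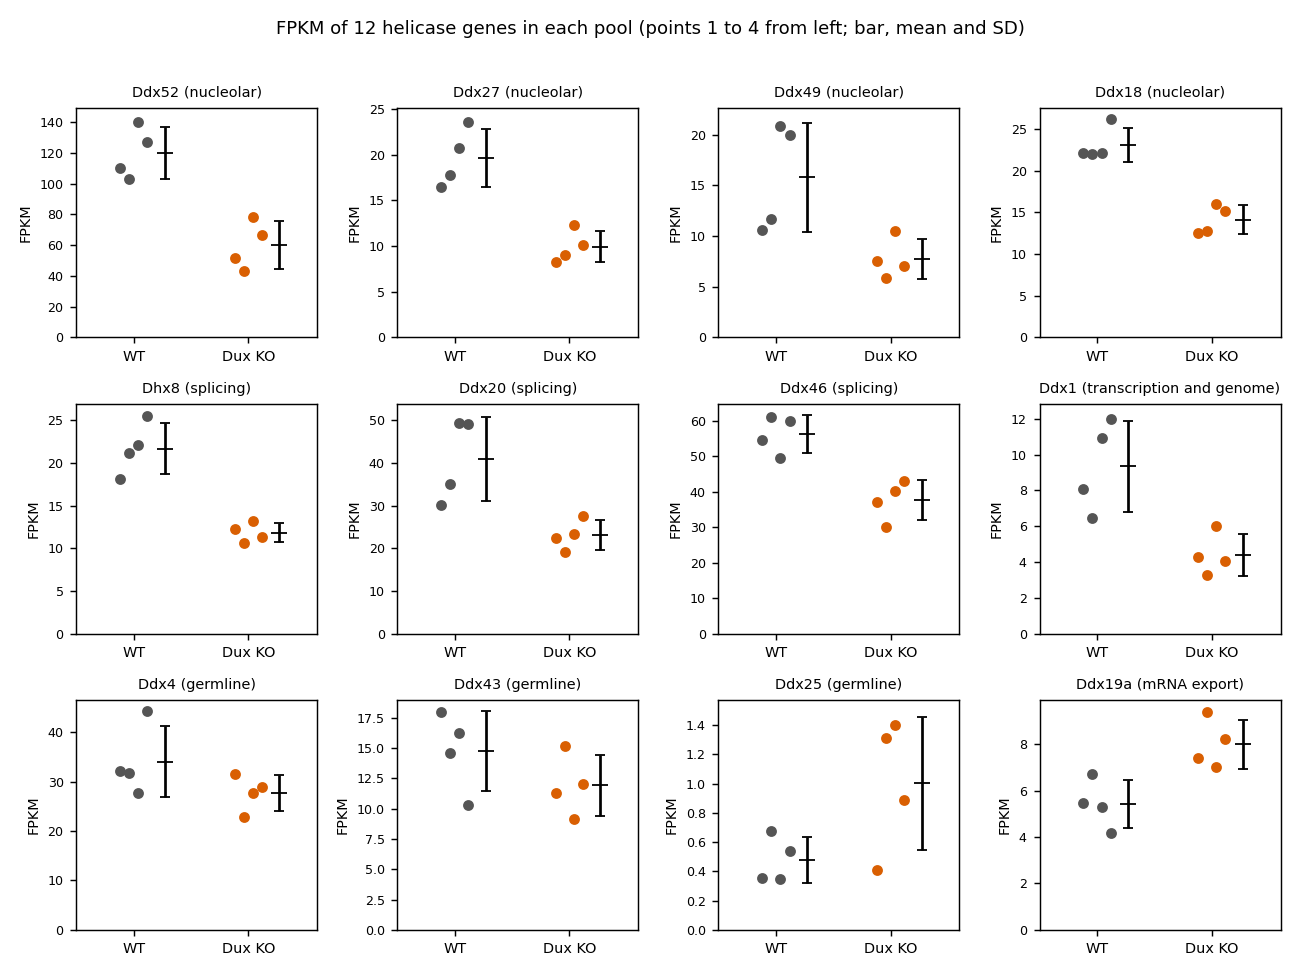
FPKM of 12 helicase genes in each pool, with points for pools 1 to 4 from left to right in each group and the mean and SD beside them. In the top row and in Dhx8, Ddx20, Ddx46 and Ddx1 all Dux KO pools lie below all WT pools, whereas the germline genes Ddx4, Ddx43 and Ddx25 overlap.

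None of the 3 germline helicases was called by limma, nor by limma voom on recovered reads. Of all genes limma called 18.1% lower and 15.5% higher. At an unadjusted p under 0.05 the count for these 3 helicases was 1, Ddx25, on the higher side. By the authors' deposited adjusted p Ddx25 was higher. Ddx4, the Vasa homologue of germ granules, was at 32.2, 31.7, 27.7 and 44.3 FPKM in WT and 31.6, 22.7, 27.7 and 28.8 FPKM in Dux KO pools. WT pool 3 lay within the Dux KO range, WT pools 1 and 2 barely above it and WT pool 4 well above it (a log2 change of -0.27, 95% interval -0.65 to 0.11, limma adjusted p = 0.231). Ddx43, a germline and tumour antigen gene, was at 18.0, 14.5, 16.2 and 10.3 FPKM in WT and 11.3, 15.2, 9.11 and 12.1 FPKM in Dux KO pools, with WT pools 2 and 4 inside the Dux KO range (limma adjusted p = 0.284). Exons of a transcript on the opposite strand cover 15.9% of its exonic bases. Ddx25, a helicase of spermatids, was near the lower limit at 0.352, 0.675, 0.347 and 0.537 FPKM in WT and 0.407, 1.31, 1.40 and 0.890 FPKM in Dux KO pools. Dux KO pools 2 to 4 exceeded every WT pool and Dux KO pool 1 did not. Its log2 fold change was 0.41 (95% interval 0.04 to 0.79, limma adjusted p = 0.0817). Without Dux KO replicate 1 the estimate was 0.57 and the limma adjusted p was 0.027.

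Calls among other germline RNA genes were mostly on the higher side. Of 12 tested, from a list of 15 proteins of piRNA and germ granule biology, 5 were higher (41.7%), 1 was lower (8.33%) and 6 were not called, where all genes gave 15.5% higher and 18.1% lower. Their median log2 fold change was 0.38. Dazl, an RNA-binding protein that promotes translation in germ cells, was at 37.1, 33.6, 33.2 and 26.1 FPKM in WT and 89.5, 119, 96.2 and 79.7 FPKM in Dux KO pools. It rose about 3-fold with no overlap (ratio of means 2.95, log2 fold change 1.53, limma adjusted p = 0.000994). Tdrd1, a Tudor protein of germ granules, rose from 2.34 ± 1.01 to 4.64 ± 1.13 FPKM (a log2 change of 0.79, limma adjusted p = 0.0283), and Rnf17 fell from 17.5 ± 0.996 to 11.4 ± 1.96 FPKM (a log2 change of -0.58, limma adjusted p = 0.0161). The other genes called higher were Henmt1, Tdrkh and Piwil1. The 6 calls of this list became 4 without WT replicate 1, 3 without WT replicate 2, 3 or 4, and 2 without Dux KO replicate 1 or 2.

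**Figure D4:**
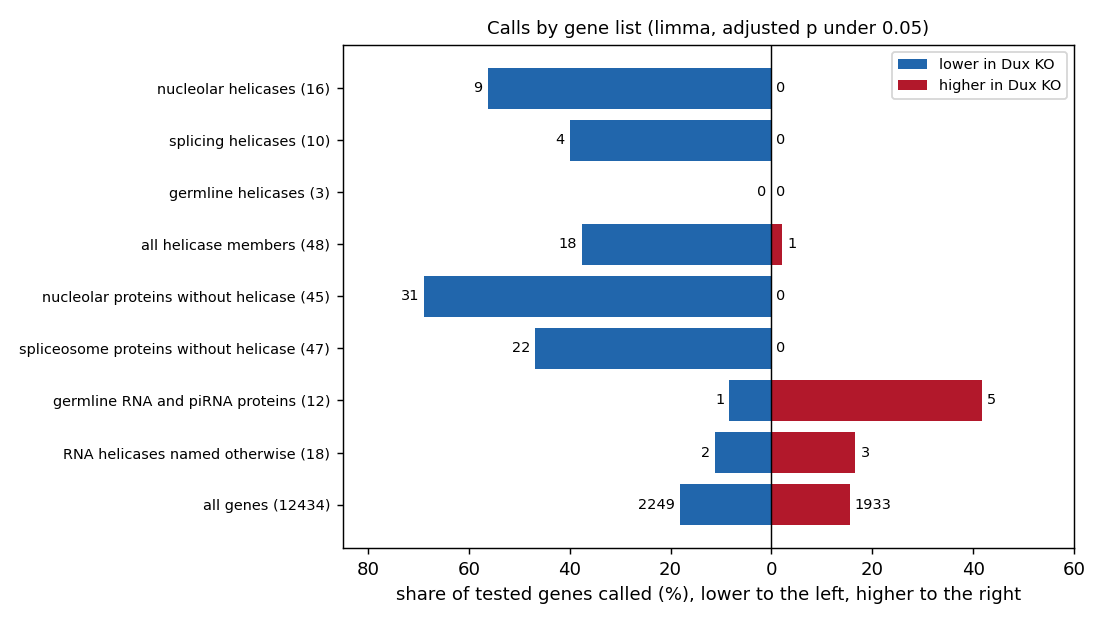
Share of tested genes called lower (blue, to the left) or higher (red, to the right) in Dux KO for helicase roles, lists of related proteins and all genes; numbers at the bars are genes called and numbers in brackets genes tested. Nucleolar lists reach 56.3% and 68.9% lower, where all genes gave 18.1%. The fit restricted to 5 FPKM or more is not drawn. It gave 29.1% of all genes and 7 of 10 nucleolar helicases lower, and 30 of 40 nucleolar proteins called in either direction.

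Helicases of mRNA export, translation and decay gave 1 lower (16.7%), 1 higher (16.7%) and 4 not called of 6 tested. These shares are near those of all genes, 18.1% lower and 15.5% higher. Ddx19a (chromosome 8, 110974996 to 110997800, GRCm38), a counterpart of yeast Dbp5 at the nuclear pore, was the helicase called higher. It was at 5.48, 6.69, 5.28 and 4.19 FPKM in WT and 7.38, 9.38, 7.003 and 8.23 FPKM in Dux KO pools. Although the groups did not overlap, the call (a log2 change of 0.50, 95% interval 0.12 to 0.87, limma adjusted p = 0.0425) was lost without any 1 of WT replicates 1, 3 and 4 or Dux KO replicates 1, 2 and 4. Ddx19b, its neighbour on chromosome 8 and close paralogue, was at 5.65, 5.77, 7.92 and 7.09 FPKM in WT and 5.95, 4.74, 5.35 and 5.93 FPKM in Dux KO pools, and was not called (limma adjusted p = 0.295). The ratio of Ddx19a to Ddx19b was 0.591 to 1.16 in WT pools and 1.24 to 1.98 in Dux KO pools. Reads of near-identical stretches may have been split between them.

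Ddx39, the older symbol of the export helicase Ddx39a, was at 67.3, 70.0, 119 and 105 FPKM in WT and 55.2, 52.9, 71.5 and 56.8 FPKM in Dux KO pools. WT pools 1 and 2 fell within the Dux KO range. Its call (a log2 change of -0.57, limma adjusted p = 0.0486) was lost in 12 of 19 alternative analyses, among them both scaling alternatives and leaving out WT replicates 3 or 4 or Dux KO replicates 1, 2 or 4. Adgre5 on the opposite strand covers 17.4% of its exonic bases. The ratio of Ddx39 to Ddx39b was 10.9 ± 2.72 in WT and 12.3 ± 1.16 in Dux KO (SD, n = 4).

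Ddx3x, a translation helicase and the third most abundant of the set, was at 61.6, 60.3, 61.6 and 65.8 FPKM in WT and 55.6, 80.0, 58.6 and 67.0 FPKM in Dux KO pools. The difference was close to 0, and its 95% interval was -0.27 to 0.38 (limma adjusted p = 0.795). Its Y-linked paralogue Ddx3y was too low to be tested, at 0.704, 0.111, 0.383 and 1.17 FPKM in WT and 0.199, 0.0979, 0.311 and 0.0138 FPKM in Dux KO pools, or 1 to 80 reads. Dhx29, of translation initiation, and Dhx36, which resolves G-quadruplexes, were not called (95% intervals -0.45 to 0.21 and -0.54 to 0.30).

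**Figure D5:**
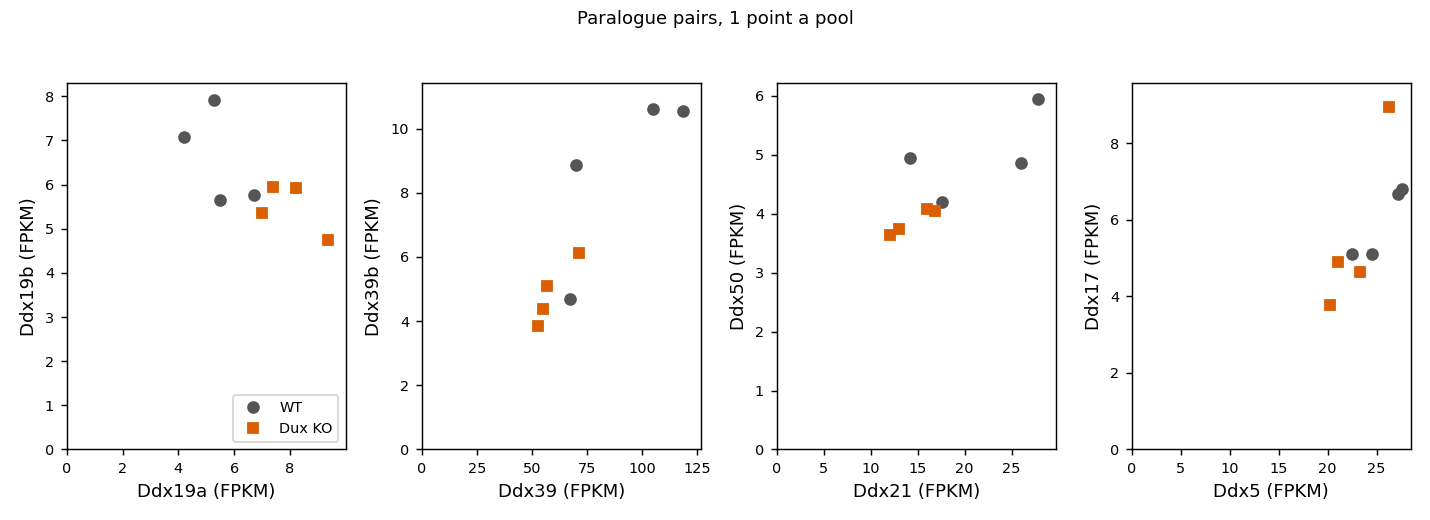
FPKM of paralogue pairs, with 1 point a pool (circles, WT; squares, Dux KO). For Ddx19a all Dux KO pools, at 7.003 FPKM or more, lie to the right of all WT pools, while Ddx39 and Ddx39b each overlap between the groups.

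Of 5 helicases of transcription and genome maintenance, 2 were lower (40%) and none was higher, where all genes gave 18.1% and 15.5%. Ddx1 (chromosome 12, 13216973 to 13249213, GRCm38), a subunit of the tRNA ligase complex, was at 8.06, 6.45, 10.9 and 12.0 FPKM in WT and 4.26, 3.25, 5.99 and 4.05 FPKM in Dux KO pools. It fell by 53.1% of its WT mean without overlap (a log2 change of -0.93, 95% interval -1.41 to -0.46, limma adjusted p = 0.0101). Dhx9, RNA helicase A, was at 14.5, 18.1, 25.3 and 24.5 FPKM in WT and 9.24, 13.8, 15.5 and 11.4 FPKM in Dux KO pools. Dux KO pool 3 exceeded WT pool 1, and the call (a log2 change of -0.67, limma adjusted p = 0.0315) was lost without WT replicates 3 or 4 or Dux KO replicates 1 or 4. The transcriptional coregulators Ddx5 and Ddx17 were not called, with WT and Dux KO means of 25.4 ± 2.41 and 22.7 ± 2.71 FPKM for Ddx5 and of 5.92 ± 0.947 and 5.57 ± 2.31 FPKM for Ddx17 (SD, n = 4). The estimate of Ddx17 was -0.12 and became 0.00936 without Dux KO replicate 2. The ratio of Ddx5 to Ddx17 was 4.33 ± 0.347 in WT and 4.40 ± 1.07 in Dux KO (SD, n = 4). Ddx11, a DNA helicase of sister chromatid cohesion, was near the lower limit and not called (limma adjusted p = 0.528).

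None of the 2 mitochondrial and 2 antiviral helicases was called by limma, where 18.1% of all genes were lower and 15.5% higher. At an unadjusted p under 0.05 there was 1 in each role, Ddx28 and Ddx60, and limma voom on recovered reads called Ddx60 lower. Ddx28, of the mitochondrial ribosome, was at 2.52, 3.21, 4.55 and 4.87 FPKM in WT and 2.47, 1.72, 2.18 and 2.63 FPKM in Dux KO pools, with WT pool 1 inside the Dux KO range (a log2 change of -0.54, limma adjusted p = 0.0524). Ddx60, an interferon-induced gene, was at 2.33, 2.64, 2.71 and 2.54 FPKM in WT and 1.14, 0.842, 1.80 and 2.37 FPKM in Dux KO pools (a log2 change of -0.52, limma adjusted p = 0.054). The WT pools of Ddx60 were close together, while Dux KO pool 4 reached their level. Dhx30, of mitochondrial RNA granules, was at 2.53, 3.40, 3.47 and 3.64 FPKM in WT and 2.54, 2.70, 2.81 and 3.60 FPKM in Dux KO pools, overlapping widely (95% interval -0.48 to 0.23). Dhx58, the RNA sensor LGP2, was at 1.59, 0.726, 1.04 and 2.48 FPKM in WT and 0.568, 0.0972, 0.763 and 1.45 FPKM in Dux KO pools, on 5 to 107 reads per pool. Its groups overlapped as well (95% interval -1.09 to 0.04).

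Among the 4 helicases of less defined role, Dhx57 and Dhx40 were lower (50%) and none was higher, where all genes gave 18.1% and 15.5%. Dhx57 was at 11.8, 11.4, 11.8 and 16.6 FPKM in WT and 8.16, 4.30, 7.70 and 8.91 FPKM in Dux KO pools (a log2 change of -0.77, limma adjusted p = 0.0201), and its call was lost without WT replicate 4. Dhx40 was at 21.5, 27.4, 27.3 and 28.7 FPKM in WT and 17.8, 15.0, 20.4 and 18.5 FPKM in Dux KO pools (a log2 change of -0.52, limma adjusted p = 0.0244). Its call was lost with quantile normalization and without any 1 of WT replicates 2, 3 and 4 or Dux KO replicates 1 and 2. Neither gene overlapped between the groups. Ddx59 and Dhx32 were not called (95% intervals -0.61 to 0.15 and -0.25 to 0.54).

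Of 18 tested RNA helicases that carry other names, 2 were lower (11.1%), 3 were higher (16.7%) and 13 were not called, with a median of -0.16. These shares are near those of all genes, 18.1% and 15.5%. Eif4a3, the helicase of the exon junction complex, fell from 173 ± 27.1 to 97.3 ± 23.1 FPKM (SD, n = 4; log2 fold change -0.84, limma adjusted p = 0.00975). D1Pas1, an autosomal relative of Ddx3x, fell from 13.9 ± 1.30 to 9.68 ± 1.21 FPKM (a log2 change of -0.49, limma adjusted p = 0.0292). Znfx1, an antiviral and small RNA helicase, rose from 1.03 ± 0.305 to 2.03 ± 0.429 FPKM (a log2 change of 0.58, limma adjusted p = 0.0221). Tdrd12, of the piRNA pathway, rose from 11.8 ± 2.45 to 18.1 ± 4.23 FPKM (a log2 change of 0.57, limma adjusted p = 0.047). The remaining gene called higher was Ythdc2. The 5 calls of this list became 1 without WT replicate 4 or Dux KO replicate 1, 2 without WT replicate 2 or Dux KO replicate 2, and 3 without WT replicate 1 or Dux KO replicate 3.

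How many helicases were called lower depended on the pools kept. The count of 18 was 9 when WT replicate 4 was left out, 12 when WT replicate 3 was and 11 when Dux KO replicate 1 was. For WT replicate 4 and Dux KO replicate 1 the share of all genes called lower became 10.8% and 11.4%. Dux KO replicates 1 and 2 had the most Krt18 and Ovgp1, while Inha was highest in Dux KO replicate 4. For Ovgp1, WT replicate 3 was nearly equal to Dux KO replicate 1 (11.5 and 11.7 FPKM). Epcam was lowest in Dux KO replicate 2, at 65.2 FPKM. Any link of these markers to the calls was not tested. Without Dux KO replicates 1 and 2 together, 2 helicases were lower, Ddx52 and Dhx8, beside 3.56% of all genes. Without Dux KO replicates 3 and 4 together 16 were lower, beside 16.9% of all genes. The median log2 fold change of the 48 genes was -0.35 without Dux KO replicates 1 and 2, and -0.48 without replicates 3 and 4.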

How the data were processed

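The deposited gene table gives FPKM for 13101 genes in 8 samples, grouped by the sample labels. Per the submitters' processing notes, Trimmomatic 0.32, STAR 2.6.1a, SAMtools 1.7 and GRCm38 were used; counter, annotation, strand and multi-mapping rule were not given in the sources used here. The authors' mean signal, read as counts over size factors, gave whole reads from the FPKM steps (100% within 0.05). The authors' log2 fold changes and adjusted p-values are also deposited. No gene has a mean count under 25.0.

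The 12434 genes averaging 0.5 FPKM or more were fitted with limma 3.58.1 (R 4.3.3, trend and robust moderation) on log2(FPKM + 1), a scale that understates changes of low genes. On simulated reads with the same dispersion for every gene, the fit recovered 56% of genes changed by a log2 fold of 0.8. At 1.5 it recovered 99%, and 4.91% of all calls were false. A gene that was not called may therefore still have changed. Within each genotype the pools were further apart than counting error (chi-square per degree of freedom of 13.8 or more), and each counts as 1 replicate. P-values were adjusted by Benjamini-Hochberg over all genes tested. Alternatives were another pseudocount (0.1), no filter or a 5 FPKM filter, quantile and median-of-ratios scaling, a replicate block, plain moderation, the deposited adjusted p, limma voom, and leaving out pools. Coordinates are from GENCODE M21 (GRCm38).

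Every helicase could be named. Values in all pools were planned for called members (at most 6 a role and direction), the 2 most abundant of a role without calls, germline members and the 3 most abundant members, with 2 genes a direction from each related list. Members, lists and alternatives were chosen with earlier results of these data known, and lists have no set test. The repeat table was not used here. Promoter windows are from RefSeq (GRCm38.p6).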

Additional observations from a re-analysis of the deposited data

Results flagged for a closer look

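In 5 of 98 groups of 4 pools (49 genes in 2 genotypes), 1 pool stood far from the other 3, with a gap to its nearest neighbour that took up most of the group's range (Dixon's test at 95%); chance gives about 1 in 20. Ddx18 was at 26.2 FPKM in WT pool 4, above the other WT pools. Dhx57 was at 16.6 FPKM in WT pool 4, likewise above the others. Ddx42 was at 6.65 FPKM in Dux KO pool 2, the highest of its group and above all WT pools. Dhx16 was at 5.95 FPKM in Dux KO pool 2, the lowest of its group. Dhx36 was at 10.4 FPKM in Dux KO pool 4, above every other pool of either genotype.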

How the results depend on the processing

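Over 19 alternatives, 898 member estimates comprised 801 with the same direction and call, 70 that lost and 23 that gained a call, and 4 that changed sign without being called. When 1 pool at a time was left out, Ddx17 ran from -0.344 to 0.00936 and Ddx3x from -0.0483 to 0.124, each changing sign when Dux KO replicate 2 was left out. When Dux KO replicates 1 and 2 were both left out, Ddx17 was at 0.157 and Dhx36 at 0.0722. Their cause was not tested. The edgeR and DESeq2 alternatives were not run. Limma voom on recovered reads, added after seeing the data, gave 19 helicases lower and 1 higher, beside 19.3% of all genes lower.

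Leaving out 1 pool at a time, helicases lower numbered 9 to 21 (18 with all pools), helicases higher 0 to 1 (1 with all pools; the gene was Ddx25 without Dux KO replicate 1), nucleolar helicases lower 5 to 11 (9 with all pools) and splicing helicases lower 3 to 4 (4 with all pools). Called genes numbered 19 to 32 of nucleolar proteins (31 with all pools), 13 to 24 of spliceosome proteins (22 with all pools), 2 to 5 of germline RNA proteins (6 with all pools) and 1 to 5 of other RNA helicases (5 with all pools). Without Dux KO replicates 1 and 2 these 8 counts were 2, 0, 1, 1, 8, 4, 1 and 0, with fewer samples in the fit. Without Dux KO replicates 3 and 4 helicases higher were 0 and other RNA helicases called 3. Other RNA helicases called were 3 by quantile normalization and 3 at a mean of at least 5 FPKM, where 11 were tested. By the deposited p-values 2 helicases were higher. Over all genes tested, calls numbered 2522 to 4049 with 1 pool left out and 795 without Dux KO replicates 1 and 2 (4182 with all pools). Scaling moved the median of all genes by less than 0.1. The median of splicing helicases (-0.27) was -0.41 by the deposited fold changes and -0.42 by limma voom.

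With the replicate number as a block, 23 helicases were lower and 1 higher, beside 20.8% of all genes lower. Deviations of same-numbered pools correlated at -0.12, 0.33, -0.06 and 0.30, and not every pool correlated best with its own number, so that the numbers were not taken to pair the pools. Depth limits Dhx58, Ddx11 and Dhx37, which had as few as 5, 20 and 22 reads in a pool.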

Other observations

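In the authors' deposited table, 3 helicase genes had an adjusted p under 0.05 that were not called by limma on log2(FPKM + 1). Ddx25 had a log2 fold change of 1.07 in the authors' deposited table (adjusted p = 0.0403), and Dhx37 one of -1.004 (adjusted p = 0.0448). Ddx3y, untested here for its low level, had -1.93 in the authors' deposited table (adjusted p = 0.0387). Behind this value lie 1 to 80 reads per pool, and WT pools alone ran from 0.111 to 1.17 FPKM. Ddx3y is Y-linked, and the sex of the embryos in each pool is not given in the labels. All 19 helicase genes called here also passed in the authors' deposited table, with the same direction.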
